A study of Homo sapiens with 4 samples.

Results

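LUZP2, a gene for a leucine zipper protein on the short arm of chromosome 11, follows a stretch without protein-coding genes. Part of this stretch was among the regions with the most HOXB13 peaks in the GSK2879552 library of LNCaP cells. The members were all peaks of either deposited list with a summit on chromosome 11 between 22800000 and 25200000 of the hg19 build. They came to 129 of the 68049 peaks placed on chromosomes 1 to 22, X and Y in the GSK2879552 list and 9 of the 3507 in the vehicle list. The window was chosen because its bin from 23 to 24 Mb held the most GSK2879552 peaks of any 1 Mb bin away from long peak-free intervals. Its peak number is thus a description, and so are all other values of the GSK2879552 list given for it.

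LNCaP is an established, androgen-sensitive line of prostate cancer cells. Chromatin bound by HOXB13 was immunoprecipitated and sequenced from cells labelled as given GSK2879552 at 50 µM for 4 hours, and from cells labelled as vehicle control. The treatment text names RPMI1640 medium with 5% CSS and the inhibitor in all 4 samples, so the vehicle group rests on titles and descriptions. The 4 samples were 2 sequencing lanes for each treatment, called technical replicates in the labels, and each treatment had 1 peak list for both lanes. No value below therefore has an error between cultures, every interval covers counting error only, and a difference between the lists compares 2 libraries. Their depth, read from the peaks, was 201 tags per 10 kb with GSK2879552 and 44.3 with vehicle.

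HOXB13 belongs to the homeobox transcription factors that pattern the hindmost body segments, and it is kept on in the prostate, where it binds mostly at distal regulatory sites, often together with the androgen receptor and FOXA1. LSD1 (KDM1A), the target of GSK2879552, removes methyl groups from lysine 4 of histone H3 and acts at enhancers and promoters in complexes such as CoREST. Stretches of the genome without protein-coding genes can carry enhancers of genes at their borders.

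In RefSeq's order of genes (GRCh38.p14, used here for names and order only), CCDC179 is the protein-coding gene before LUZP2 and ANO3, a gene of the anoctamin family, the one after it. Between CCDC179 and LUZP2 the table lists 12 entries, namely 6 long non-coding RNAs, 5 pseudogenes and the microRNA gene MIR8054. The stretch is thus a desert of protein-coding genes, not of all annotated genes. In hg19, LUZP2 was taken to run from 24518516 to 25104150, 586 kb, and the desert from 23 to 24.5 Mb.

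No peak of either list lay at the start of LUZP2. The closest GSK2879552 summits were 38.8 kb before it, in a peak (24479582 to 24479811) enriched 4.55-fold, and 19.4 kb inside the gene, in a peak (24537919 to 24538086) enriched 3.22-fold. Fold enrichment is the authors' value at the summit, and equals the pileup of tags plus 1 over the local background plus 1. The added tag lowers it most where the background is small, as in the vehicle library, so fold enrichments of the 2 lists are not on one scale. The 250 bases before the start are shown because they are the part of the gene without a HOXB13 peak that a reader would look at first. They are from RefSeq (GRCh38.p14, plus strand), whose start was not compared with the hg19 one, and capitals mark the only match to ATAAA on either strand.
LUZP2 upstream: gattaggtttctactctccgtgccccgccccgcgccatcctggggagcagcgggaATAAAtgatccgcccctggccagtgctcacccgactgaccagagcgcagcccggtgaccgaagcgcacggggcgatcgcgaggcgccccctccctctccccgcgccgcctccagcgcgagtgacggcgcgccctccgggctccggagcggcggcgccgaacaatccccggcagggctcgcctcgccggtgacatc
These bases were 72.8% G or C, against a median of 58.0% over the 35116 upstream stretches of the same length in the table. CCAATAAA and CTCGTAAA, the forms of site known for HOX proteins of group 13, had 0 matches here on either strand. They occur in 0.863% and 0.117% of all upstream stretches, and ATAAA, which lies within the first of them, in 32.7%. A match or its lack describes these letters only.

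The GSK2879552 list had 95 members in the desert, 63.3 per Mb, and 25 in LUZP2, 42.7 per Mb. Of the 95, 72 lay in the bin whose peak number chose the window, and the rest of the desert, from 24.0 to 24.5 Mb, held 23, 46.0 per Mb. The other 9 lay at the edges, 5 before the desert and 4 after LUZP2. The vehicle list had 7 members in the desert and 2 in LUZP2, 4.67 and 3.42 per Mb, numbers too small to tell the 2 apart. For comparison, the median 1 Mb bin with any ordinary GSK2879552 peak held 24. An ordinary site is more than 2 Mb away from any stretch of 2.5 Mb or longer without a peak, and its local background is less than 5 times that of the whole library. All 138 members of the 2 lists were ordinary in this sense. By ordinary vehicle peaks, the window's densest 1 Mb bin, with 7, ranked 4th among the 1609 bins that held any, and 2 bins tied at that number.

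**Figure D1:**
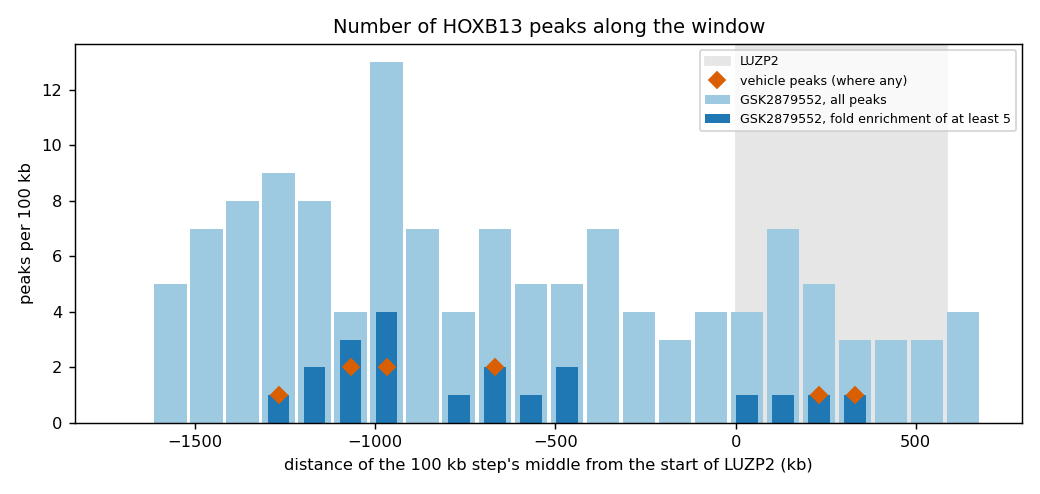
Number of HOXB13 peaks in steps of 100 kb across the window, by the distance in kb of the middle of each step from the start of LUZP2 (grey). Wide bars are all GSK2879552 peaks, narrow bars those with a fold enrichment of at least 5, and diamonds vehicle peaks. The step from 23.5 to 23.6 Mb stands highest with 13 peaks.

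In the desert, peaks per 100 kb were fewer next to LUZP2 than in most steps up to 23.6 Mb, but close to those from there to 24.0 Mb. The bin from 23 to 24 Mb was chosen for its peak number, so lower numbers beside it follow in part from that choice. GSK2879552 peaks numbered 7, 8, 9, 8 and 4 in the 5 steps of 100 kb from 23 to 23.5 Mb and 13 in the step after them. The steps from 23.6 to 24.0 Mb held 7, 4, 7 and 5. The 5 steps from 24.0 to 24.5 Mb held 5, 7, 4, 3 and 4. The widest stretch without a member lay among these last steps, 101.1 kb between 24237820 and 24338970. Within LUZP2, the steps from 24.6 to 24.8 Mb held 7 and 5 peaks, and the 3 steps from 24.8 to 25.1 Mb held 3 each. Neighbouring summits of the window were a median of 13.2 kb apart (quartiles 5.86 and 25.1), against 22.6 kb over all placed GSK2879552 peaks (8.74 and 50.4).

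The edges of the window are round coordinates, and 1 peak on either side of each is given here as a description. The last peak before the window lay 151 kb outside it (22648573 to 22648711, enriched 4.01-fold), and the first member lay 100.1 kb inside (22899946 to 22900154, 3.87-fold). At the other edge, the last member (25182698 to 25182836) was enriched 3.36-fold and the next peak outside (25221721 to 25221925) 5.44-fold.

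HOXB13 was most enriched at 4 sites of the window, 2 inside LUZP2 and 2 in the desert, and all 4 also had a vehicle peak. The highest lay in LUZP2, 271 kb from its start, at 24788935 to 24789326. It was enriched 12.2-fold with GSK2879552 and 7.66-fold with vehicle, with pileups of 88 and 15 tags and summits 3 bp apart. Without the added tag, pileup over local background was 13.9 and 13.8. The second site in LUZP2, 340 kb from the start at 24858549 to 24859020, had fold enrichments of 10.96 and 6.50 and pileups of 86 and 12. These 2 sites stand alone in the gene: the other 23 members there had fold enrichments of at most 5.60.

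In the desert the tallest site was at 23296400 to 23296810, with fold enrichments of 11.2 and 7.22 and pileups of 79 and 12. The next, at 23412501 to 23412949, had fold enrichments of 9.90 and 6.94 and pileups of 66 and 11. The fifth member by fold enrichment, at 23548761 to 23549201, reached 6.70 with a pileup of 56 and had no vehicle peak. The list thus drops from 9.90 to 6.70 after the fourth site.

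Set over the genome-wide background of its own library, the pileup at these 4 sites could not be told apart between the libraries within counting error. Tags were extended to 139 bp with GSK2879552 and 100 bp with vehicle, so this scale is not that of tag numbers. Each position was covered by 2.79 background tags with GSK2879552 and by 0.443 with vehicle. At the highest site of LUZP2 the pileup was 31.5 times the background with GSK2879552 (exact 95% Poisson interval 25.3 to 38.8) and 33.9 times with vehicle (19 to 55.9). At the second it was 30.8 times (24.6 to 38) and 27.1 times (14 to 47.4). At the tallest desert site it was 28.3 times (22.4 to 35.2) and 27.1 times (14 to 47.4), and at the next 23.6 times (18.3 to 30.1) and 24.9 times (12.4 to 44.5). The intervals of the 2 libraries overlapped at each site. They are wide enough in the vehicle library, with 11 to 15 tags, that a difference of 1.5 times would not have been detectable at this depth.

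**Figure D2:**
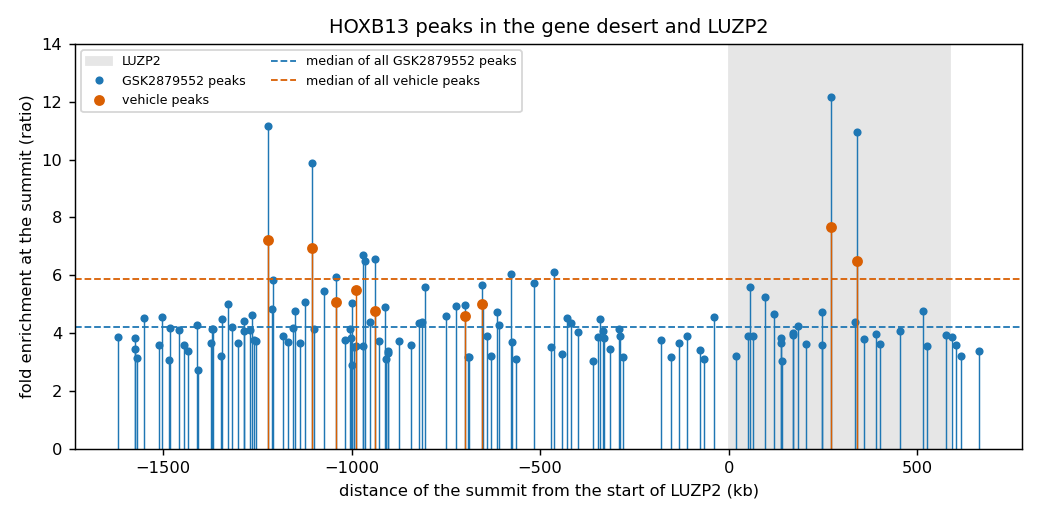
Fold enrichment at the summit (ratio, linear axis from 0) of all 129 GSK2879552 and 9 vehicle peaks of the window, by distance in kb from the start of LUZP2 (grey). Dashed lines are the medians of all placed peaks of each list, 4.22 and 5.88; the 4 tall GSK2879552 sites, 9.90 to 12.2, each carry a vehicle peak.

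Of the 9 vehicle members, 8 shared 1 bp or more with a peak called with GSK2879552. This is 88.9% (51.8 to 99.7, exact binomial), while 91.2% of all placed vehicle peaks did. The members' share depended on the definition, with 44.4% for summits within 50 bp and 11.1% where each peak had to cover 50% of the other. Shares over all peaks were not taken under these definitions. Vehicle members were 100 to 189 bp wide and their partners at the 4 tall sites 392 to 472 bp, so none could cover 50% of such a partner. Besides the 4 above, the overlapping vehicle peaks were all in the desert and weaker. The peak at 23477847 to 23477946 was enriched 5.06-fold with 7 tags at the summit, beside a GSK2879552 peak enriched 5.94-fold with 28 tags. That at 23530288 to 23530430 had 5.48 and 7, beside 3.54 and 18, and was the only vehicle member of these pairs with a higher fold enrichment than its partner. In this pair the order was the same without the added tag, but in the other desert pairs it rests on that tag. As plain pileup over local background, the vehicle value was the higher one in 6 of the 8 pairs, all in the desert. These ran from 8.99 against 7.47 to 15.2 against 4.12. In both pairs of LUZP2 the vehicle value was slightly lower, 13.8 against 13.9 and 12.0 against 12.4. No interval was set on these ratios, and the vehicle pileups behind them were small. A pair exists only where a vehicle peak was called, and with few background tags only high ratios are called. The order within pairs thus follows in part from the calling, and no difference between desert and gene can be read from it. Next came 23580949 to 23581103 with 4.76 and 8, beside 6.57 and 46. The one at 23864581 to 23864680 had 5.00 and 8, beside 5.68 and 33. The vehicle peak without a partner, at 23819294 to 23819413, was the weakest of the 9, enriched 4.61-fold with 6 tags, and the closest GSK2879552 summit was 1205 bp away. No vehicle peak lay between 23864680 and 24789071, a stretch that covers the desert from 24.0 to 24.5 Mb and the start of LUZP2. Such a stretch is not particular to the window, as the 1 Mb bins of chromosome 11 from 19 to 22 Mb held no vehicle peak either.

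A vehicle peak was found at 8 of the 129 GSK2879552 members, 6.20% (2.72 to 11.9), against 4.59% of all placed GSK2879552 peaks and 4.04% (3.89 to 4.20) of the ordinary ones outside the window. The members' interval covers both. Where each peak had to cover 50% of the other, the members' share was 0.775%, and the share over all peaks was not taken. The share at an overlap of 1 bp or more followed the pileup, as it did elsewhere. At a pileup of 60 or more, 4 of 4 members had a vehicle peak, against 81.0% of such ordinary peaks outside. At 40 to under 60 it was 1 of 5 (0.505 to 71.6%), against 37.3%, and at 30 to under 40 it was 1 of 11 against 12.0%. Below that it was 1 of 51 at 20 to under 30 and 1 of 58 at 10 to under 20, against 2.90% and 0.560%. In each class the exact binomial interval of the members held the value outside.

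The members were taller in tags but lower in fold enrichment than GSK2879552 peaks at large. Their median pileup was 20 (quartiles 17 and 25), against 18 over all placed peaks (15 and 23), and 71 of 129 reached a pileup of 20, 55.0%, against 40.1%. Their median fold enrichment was 3.92 (3.59 and 4.56), against 4.22 (3.69 and 5.02), and 20 of 129 reached a fold enrichment of 5, 15.5%, against 26.6%. Where the local background is higher, a peak needs more tags to be called and can be called at a lower fold enrichment. Both differences may thus follow in part from the calling. The members' median width was 198 bp, close to that of all peaks. The widest, 586 bp at 23308200 to 23308785, was enriched 4.85-fold and reached 39 tags.

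The local background that enters the fold enrichment was higher at the members, by their median, than at peaks elsewhere, though not in every part of the window. This background could be solved for every peak from the fold enrichment and the p-value, and is given here relative to the genome-wide background of the same library, which is its lowest possible value at nearly all peaks. At the members it had a median of 1.51 (quartiles 1.28 and 1.84, highest 3.18), against 1.21 at ordinary GSK2879552 peaks outside the window (1.05 and 1.43). It lay above the genome-wide value at 127 of 129 members, 98.4%, against 82.1% of all placed peaks. It was at least 2 times that value at 30 members, 23.3%, against 5.78%. The median was 1.51 in the desert and 1.54 in LUZP2. It was 2.13 at the 5 members before the desert and 1.17 at the 4 after LUZP2, the latter below the value outside. In the desert it was 1.68 within the bin that chose the window and 1.29 in the rest. Of the 23 steps of 100 kb with a member, 20 had a median above the 1.21 outside, and the other 3 had 1.14 (24.0 to 24.1 Mb), 1.19 (25 to 25.1 Mb) and 1.17 (25.1 to 25.2 Mb).

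**Figure D3:**
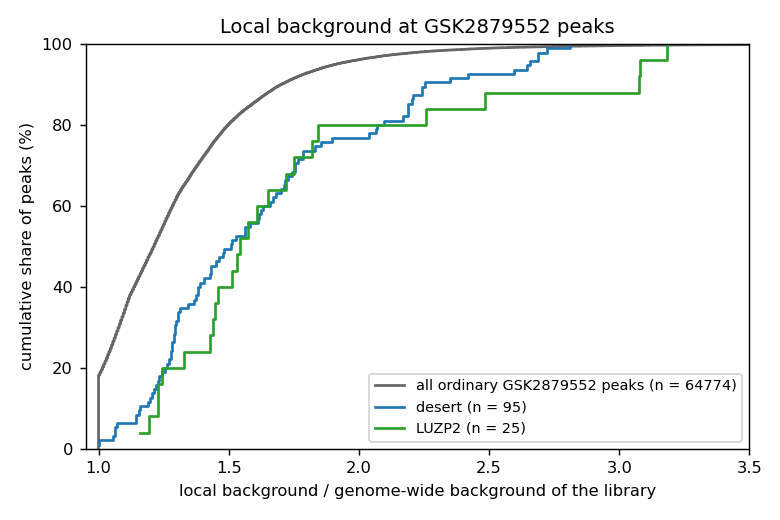
Cumulative share of GSK2879552 peaks (%) by local background, relative to the genome-wide background of the library. The curves of the desert (95 peaks) and LUZP2 (25 peaks) lie to the right of that of all 64774 ordinary peaks over most of the range, with medians of 1.51 and 1.54.

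The same held for members of equal pileup, though barely in the lowest class. At a pileup of 10 to under 15 the median relative background was 1.07 at 11 members and 1.05 at ordinary peaks outside. At a pileup of 15 to under 20 the median relative background was 1.31 at 47 members and 1.16 at ordinary peaks outside the window. At 20 to under 25 it was 1.57 at 35 members and 1.32 outside, and at 30 to under 40 it was 2.24 at 11 members and 1.55 outside. At equal pileup a higher background lowers the fold enrichment by definition, so this is the same result on another scale. The median fold enrichments were 3.74 against 4.16, 4.10 against 4.80, and 4.85 against 6.45.

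The background window of 10 kb also counts the tags of the peaks in it, so these were subtracted. With the pileups of all summits of the list within 5 kb taken off, a median of 281 tags per 10 kb remained at the members, against 219 at ordinary peaks outside and a genome-wide 201. More than the genome-wide number remained at 125 of 129 members, 96.9%, against 67.2% of all placed peaks. Tags of a peak that do not cover its summit were not taken off. Members without another summit within 5 kb, 81 in number, had a median relative background of 1.34, against 1.14 at such ordinary peaks outside, and 251 against 212 tags remained. The other 48 members had 1.78, against 1.42. The high background was thus measured with and without neighbouring peaks. Neighbouring members share parts of a 10 kb window and are not independent.

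In the vehicle library, which the choice of the window did not use, the local background of the 9 members ranged from 1.04 to 2.46 times the genome-wide value, with a median of 1.81 (quartiles 1.31 and 2.01). Ordinary vehicle peaks outside the window had a median of 1.54 (1.22 and 1.81). All 9 lay above the genome-wide value, as did 95.4% of all placed vehicle peaks, and a background of 44.3 tags per 10 kb was exceeded after subtraction at 8 of 9, against 82.3%. The members' values overlapped those elsewhere, and with 9 peaks a raised background was not detectable in this library. At the tall sites of LUZP2 the relative backgrounds of the 2 libraries were 2.26 with GSK2879552 and 2.46 with vehicle, and 2.48 and 2.26. At those of the desert they were 2.21 and 1.81, and 2.06 and 1.65.

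Of the 1 Mb bins of chromosome 11 from 18 to 31 Mb, the one from 23 to 24 Mb had both the most GSK2879552 peaks and the highest median background, while over the other bins the background did not follow the peak number throughout. The bins from 18 to 22 Mb held 20, 17, 16 and 11 GSK2879552 peaks with median relative backgrounds of 1.10, 1.10, 1.08 and 1.24. From 22 to 23 Mb there were 20 peaks with 1.26, among them the 5 members before the desert, whose median was 2.13. The bin from 23 to 24 Mb held 72 peaks with 1.68, all of them above the genome-wide value, and the next 45 with 1.40. From 25 to 26 Mb the values were 36 and 1.32. The bins from 26 to 29 Mb held 29, 38 and 33 peaks with 1.17, 1.24 and 1.26, so none was above the 1.26 of the bin with 20 peaks before the desert.

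**Figure D4:**
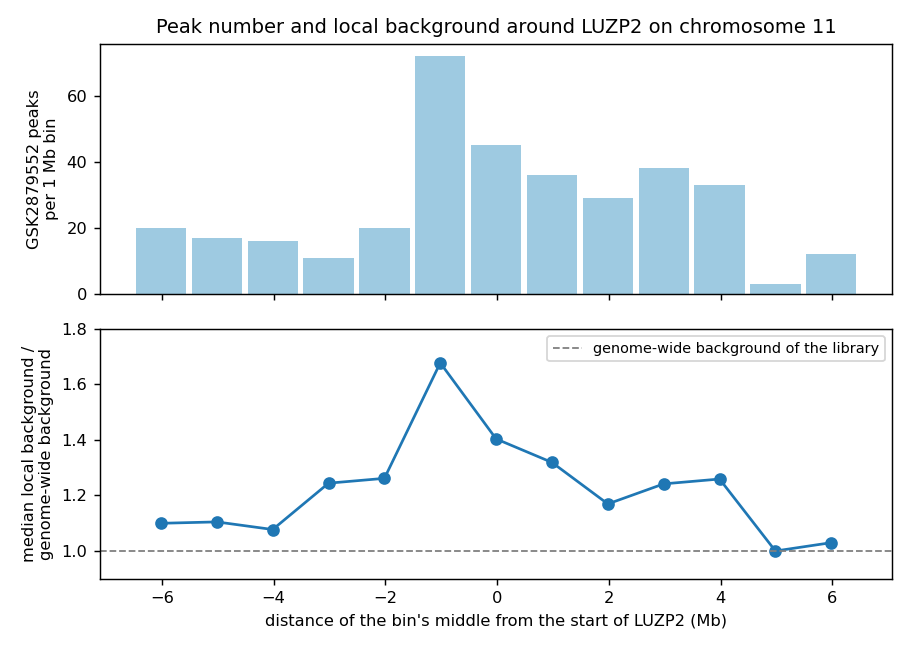
GSK2879552 peaks per 1 Mb bin (top) and median local background of these peaks relative to the genome-wide one (bottom) on chromosome 11, by distance in Mb of the middle of each bin from the start of LUZP2. Of the bins plotted, both are highest in the one just before the gene, with 72 peaks and 1.68; only peaks were measured, so bins with few peaks rest on few values.

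Among the 1795 bins of 1 Mb with at least 20 ordinary GSK2879552 peaks, the bin from 23 to 24 Mb ranked first by peak number and 15th by median relative background. The bin from 24 to 25 Mb, which holds most of LUZP2, ranked 58th by peak number. Those from 22 to 23 Mb and from 25 to 26 Mb ranked 1681st and 306th. The first place of the bin from 23 to 24 Mb held for these bin edges. Among all bins with any ordinary peak, the window's densest bin was number 3 of 2795 with edges moved by 0.5 Mb. It was number 5 of 1419 with bins of 2 Mb and number 8 of 5456 with bins of 500 kb. At these ranks 2, 2 and 4 bins tied. The bin from 23 to 24 Mb also ranked first by peaks with a −log10 q of at least 5, with 46 against a median of 16. This rank follows in part from its peak number. The 46 were 63.9% of its peaks (51.7 to 74.9), against 54.8% of all placed GSK2879552 peaks. Of all members, 55.8% (46.8 to 64.5) reached that value, close to the share over all peaks. By peaks enriched at least 5-fold the bin from 23 to 24 Mb was 46th, with 14 against a median of 8, and 42 of all bins held 14. These were 19.4% of its peaks, against 26.6% of all placed peaks. By median fold enrichment, 4.13, the bin was 1249th. Across these bins, which share a library, peak number and median relative background had a Spearman correlation of 0.44 and a Pearson correlation of 0.45, given as a description.

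The next densest bins differed in background. The bin on chromosome 21 from 17 to 18 Mb, with 59 peaks, had a median relative background of 1.76 and a median fold enrichment of 3.87, and 9 of its peaks were enriched at least 5-fold. The HOXB cluster's bin (chromosome 17, 46 to 47 Mb) and the HOXC cluster's (chromosome 12, 54 to 55 Mb) had 60 and 59 peaks but backgrounds of 1.32 and 1.32, with 19 and 26 peaks at that fold enrichment. The bin on chromosome 3 from 71 to 72 Mb lay between, with 59 peaks, 1.45 and 11. The bin on chromosome 9 from 69 to 70 Mb had 57 peaks, a higher background of 2.03, and 8 peaks at that fold enrichment. The bin on chromosome 11 from 23 to 24 Mb, with 1.68 and 14 of 72, thus had a background between those of chromosomes 3 and 21. No test was made of these differences, since each bin is a single stretch of 1 library.

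Runs of neighbouring HOXB13 peaks had the highest backgrounds of the window. Of the 10 members with the highest relative background, 2.60 or more, all 10 had another summit within 5 kb. The 10 kb background window counts the tags of such neighbours, which also share parts of it, so this is partly built in. Of all 129 members, 62.8% had no other summit within 5 kb, against 73.3% of ordinary peaks outside the window. The tightest run lay in the desert, with 6 summits in 14.9 kb between 23515371 and 23530479. Its members had pileups of 31, 33, 24, 42, 24 and 18 in order along the chromosome. Their fold enrichments were 4.13, 3.84, 2.91, 5.06, 3.51 and 3.54, so 1 of the 6 reached 5. The relative background was 2.42, 2.81, 2.72, 2.69, 2.19 and 1.56, from 314 to 565 tags in 10 kb. A vehicle peak was found only at the last, the one with the lowest pileup of the run. In LUZP2, 3 peaks between 24656165 and 24659536 had the highest backgrounds of all members, 3.07, 3.18 and 3.08 times the genome-wide one, from 618, 640 and 619 tags in 10 kb. Their pileups were 34, 37 and 28 and their fold enrichments 3.65, 3.84 and 3.02, below the median of all peaks. None of the 3 had a vehicle peak.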

How the data were processed

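HOXB13 chromatin immunoprecipitation was sequenced in 4 samples, 2 lanes for each of 2 treatments, grouped by their titles. MACS2 2.1.2, BWA 0.7.2 and SAMtools 0.1.18 and the builds hg19 and GRCh37 stand in the submitters' processing notes, with no role given. Whether an input served as control, and how peaks were called, is not given in the sources here. Each deposited list has 1 row per peak. The fold enrichment (ratio), −log10 p-value and −log10 q-value at the summit and the summit offset are the authors' deposited values per peak. The authors' score repeats the −log10 q (times 10, as a whole number) and was not used further.

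Peaks on chromosomes 1 to 22, X and Y were used, and 676 and 215 peaks on other sequences were left out. Coordinates are given from 1. For each peak, the whole-number pileup k and the background λ were found for which (k + 1)/(λ + 1) gave the fold and the Poisson tail beyond k gave the −log10 p, within 0.001 for 100% of peaks of both lists. Backgrounds above the commonest one were whole numbers of tags in 10 kb (within 0.05) for 100.0% of the GSK2879552 peaks and 100% of the vehicle peaks at extensions of 139 and 100 bp. This sets the depth at 201 and 44.3 tags per 10 kb, provided that no separate input set the background. Solver and overlap routines returned the known values for 100% of simulated peaks. The simulated peaks followed the solver's own formula, so their recovery checks the solving alone. Pileups as low as the smallest of the vehicle list were not simulated. Peaks overlap where they share at least 1 bp. Python 3.11.15, scipy 1.17.1 and pandas 2.3.3 were used.

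The window, its members and the comparisons were chosen with earlier results of these data known. With 1 list per treatment no test between treatments was made. Shares have exact binomial and pileups exact Poisson intervals. Peaks were named by rule: all vehicle members, the 5 GSK2879552 members of highest fold enrichment, those nearest the ends of LUZP2 and of the window, the tightest run in 25 kb (the shortest where numbers tied) and the widest interval without a member. The widest member and the trio in LUZP2 were added after their values were seen. Alternatives were other overlaps, stricter thresholds, parts of the window, members without neighbours, other bins, and pileup over background with nothing added.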

Additional observations from a re-analysis of the deposited data

How the results depend on the processing

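The shares of overlapping peaks depended most on the definition, and under the alternatives were taken for the members alone. With at least 50% of each peak covered, 11.1% of the vehicle and 0.775% of the GSK2879552 members had a partner; with summits within 50 bp 44.4% of the vehicle members did, and of peaks enriched at least 5-fold in both lists 30% of the GSK2879552 members did. LUZP2 alone held 25 GSK2879552 and 2 vehicle members, 0% of the former at the genome-wide background and a median relative background of 2.36 for the latter. A −log10 q of at least 5 left 72 and 4 members, 55.8% and 44.4%, against 54.8% and 41.7% of all placed peaks. The GSK2879552 members left had a background of 1.68, with 0% at the genome-wide value. The background of GSK2879552 members was 1.34 without neighbours within 5 kb. Leaving out the bin that chose the window, an alternative added after seeing the data, gave 1.40, and 2.36 for the 2 vehicle members left. The window's densest bin ranked first as reported and at a −log10 q of at least 5. Its rank was 3 with edges moved by 0.5 Mb, 5 with bins of 2 Mb and 8 with bins of 500 kb. It was 46 for peaks enriched at least 5-fold and 4 by vehicle peaks. Other bins tied at each of these lower ranks. Without the tag added to pileup and background, also an alternative added after seeing the data, 6 of 8 vehicle members had a higher enrichment than their partner in place of 1. These pairs exist only where a vehicle peak was called, which favours high vehicle ratios. Of 42 alternatives, 21 stayed within counting error or 1.5 times. No paired analysis was possible because each treatment had 1 list for both lanes. Pileups of 6 to 15 tags limit what the vehicle list can show.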
